A study of Rattus norvegicus with 12 samples.

Results

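The comparison of 2 green teas in NDEA-injected rats covered 6 of the 12 liver libraries of the study, 3 of the NDEA+CFT-1 group and 3 of the NDEA+FYT group. The libraries were identified by their labels. All 6 came from male Wistar rats sampled at week 20. From week 2 through week 9 both groups received N-nitrosodiethylamine (NDEA) by injection, 25 mg/kg 2 times per week, and both drank a tea infusion for 20 weeks. The NDEA+CFT-1 group drank tea of the EGCG-rich variety CFT-1 and the NDEA+FYT group drank the common Fuyun6 tea (FYT). The comparison therefore asks how livers differed between the teas when the carcinogen was shared. Of the groups that drank no tea, the NDEA group had the same injections and the Control group was injected with saline in place of NDEA, with 3 libraries each. No group of the series drank tea without NDEA, and the tea was given during the injections as well as after them. The study calls its replicates biological, and p-values measure the spread between these samples. The sources used here do not say whether nodules or the tissue around them was taken.

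NDEA is a nitrosamine that liver enzymes of the cytochrome P450 family turn into a reactive form that alkylates DNA, and repeated injection is a common way to produce liver tumors in rats. Epigallocatechin gallate (EGCG) is the main catechin of green tea, a polyphenol with antioxidant activity. A liver sample holds mostly RNA of hepatocytes, and a small set of very abundant transcripts for secreted plasma proteins makes up much of it. For that reason values expressed as a share of the library, such as FPKM, go down for most genes when the abundant transcripts take a larger share.

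The values were FPKM, a count of fragments set relative to transcript length and to the fragments mapped in the library. They covered 34194 gene IDs, and the 11650 IDs whose FPKM averaged 1 or more in these 6 libraries were tested. Of the tested IDs, 10979 were Ensembl rat gene IDs and 671 were IDs of another form that is not explained in the sources used here. The tables used here paired 0 of the IDs with a gene symbol. Genes are therefore given by ID, and neither the liver label nor markers of other cell types were checked. Read counts were not used here, so no counting interval is given. The size of 1 read at low FPKM gave a depth relative to NDEA+FYT replicate 2 of 1.45, 1.20 and 1.15 in NDEA+CFT-1 and of 1.13, 1 and 1.40 in NDEA+FYT, and these ranges overlapped (exact permutation test, two-sided, p = 0.5, n = 3 per group).

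Fewer genes were detected in the livers of rats given CFT-1. An FPKM above 0 was found for 18824, 18193 and 18491 IDs in the 3 NDEA+CFT-1 libraries. The corresponding counts in NDEA+FYT were 19466, 19191 and 19867. The groups did not overlap, with 18503 ± 316 IDs against 19508 ± 340 (mean ± SD, n = 3 each, two-sided exact permutation p = 0.1, below which 3 against 3 cannot go). NDEA+CFT-1 replicate 1 was the deepest of the 6 libraries, and the part of depth in this difference was not tested. An FPKM of at least 1 was reached by 11333, 10539 and 11331 IDs with CFT-1 and by 11988, 12127 and 11819 with FYT, again without overlap (exact permutation p = 0.1, n = 3 per group). In the groups without tea, IDs above 0 numbered 19990, 19317 and 17989 in Control and 19858, 20385 and 19136 in NDEA. All 6 tea libraries thus lay within the range of the Control libraries in IDs above 0.

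The most abundant genes took a larger share of the CFT-1 libraries. The 500 genes with the highest mean FPKM over the 6 tea libraries were taken as the same set for all libraries. This set held 71.2%, 74.9% and 72.1% of the summed FPKM in NDEA+CFT-1. It held 69.4%, 70.8% and 70.8% in NDEA+FYT. The means were 72.7 ± 1.94% and 70.3 ± 0.796% (SD, n = 3 each, exact permutation p = 0.1). The 10 genes highest by the same mean showed no such separation, at 19.4 ± 1.31% against 19.8 ± 0.288% (n = 3 each, exact permutation p = 0.8). The median FPKM of the tested genes was 7.07, 5.54 and 6.78 with CFT-1, and it was 7.73, 7.50 and 7.51 with FYT (exact permutation p = 0.1, n = 3 per group). In bulk tissue, fewer cells of a type and less RNA per cell cannot be told apart. In the groups without tea, the share of the same 500 genes was 71.6%, 73.1% and 75.8% in Control and 66.0%, 72.3% and 72.0% in NDEA. Both tea groups lay within the range of these 6 libraries, on which the 500 genes were not chosen.

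**Figure D1:**
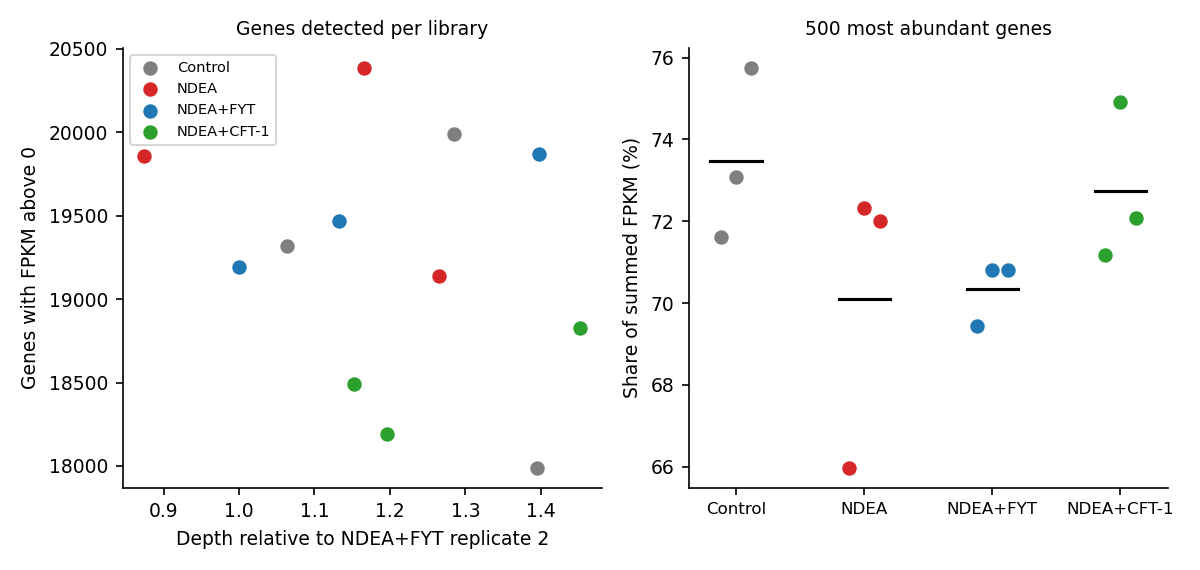
Left, IDs with an FPKM above 0 against relative depth for the 12 libraries. Right, the share of summed FPKM held by the 500 most abundant genes, with a bar at each group mean; the 3 NDEA+CFT-1 libraries, at 71.2% to 74.9%, lie above the 3 NDEA+FYT libraries, at 69.4% to 70.8%.

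NDEA+CFT-1 replicate 2 stood apart from the other libraries. It was the library farthest from its group median for 57.7% of the tested genes, against 19.5% and 22.8% for the other 2 CFT-1 libraries. The Euclidean distance on log2(FPKM + 1) was 40.0 between the closest pair of CFT-1 libraries and 73.5 between the most distant pair. Within NDEA+FYT the distances were 39.0 to 44.8, and between the tea groups they were 40.9 to 76.5. A CFT-1 library could therefore be as close to an FYT library as to another CFT-1 library. The SD over 3 libraries was larger with CFT-1 than with FYT for 70.9% of genes, with medians of 0.246 and 0.147 on the log2 scale. This larger spread rested on replicate 2. The median absolute log2 difference was 0.172 between CFT-1 replicates 1 and 3, within the 0.161 to 0.180 of the FYT pairs, and 0.339 and 0.369 in the CFT-1 pairs that hold replicate 2. As deposited, replicate 2 was the lowest of the 6 libraries for 49.2% of genes and the highest for 15.4%. After scaling of the libraries by the median of ratios, which sets the typical gene of each library to a common level, it was the lowest for 31.3% and the highest for 31.9%. The scaling factors were 1.02, 0.847 and 0.977 for NDEA+CFT-1 and 1.10, 1.05 and 1.05 for NDEA+FYT.

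No gene differed between the teas at an adjusted p under 0.05 (limma with Benjamini-Hochberg adjustment over 11650 genes, percent called 0, smallest adjusted p 0.251). After scaling the count was also 0, with a smallest adjusted p of 0.361. At an unadjusted p under 0.05, 1328 genes (11.4% of those tested) differed as deposited. Of these, 56 (0.481%) were higher with CFT-1 and 1272 (10.9%) were lower. After scaling, 1010 genes (8.67%) had an unadjusted p under 0.05, of which 315 (2.7%) were higher and 695 (5.97%) were lower. The share of higher genes among them thus went from 4.22% to 31.2%, while the median log2 difference over all tested genes went from −0.14 to 0.00. The 56 higher and the 695 lower genes had an unadjusted p under 0.05 on both scales, and 0 genes had opposite directions. The other 577 lower genes were found only as deposited and the other 259 higher genes only after scaling.

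The counts depended on single libraries. Without NDEA+CFT-1 replicate 2, the count as deposited was 277 higher and 1338 lower, and 37 of the 56 and 1019 of the 1272 genes kept an unadjusted p under 0.05. Higher genes numbered 111 when NDEA+CFT-1 replicate 3 was left out and 35 when NDEA+FYT replicate 1 was. The count of lower genes was 714 without NDEA+FYT replicate 1 and 742 without NDEA+FYT replicate 2. Of the 56 and the 1272 genes, 26 and 655 kept an unadjusted p under 0.05 without NDEA+FYT replicate 1, 25 and 679 without NDEA+FYT replicate 2, and 18 and 557 with all 4 groups in 1 fit. After scaling, 571 higher and 964 lower genes were counted once NDEA+CFT-1 replicate 2 was left out. Omission of NDEA+FYT replicate 1 gave 112 and 439, and omission of NDEA+FYT replicate 2 gave 159 and 384. When limma estimated a weight for each library, replicate 2 of NDEA+CFT-1 received the weight 0.163 and replicate 1 the weight 3.96. With these weights 94 genes had an adjusted p under 0.05 as deposited, 5 higher and 89 lower, and after scaling 0 had. Without NDEA+FYT replicate 3, 1 gene had an adjusted p under 0.05 as deposited (limma, adjusted p = 0.0230).

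**Figure D2:**
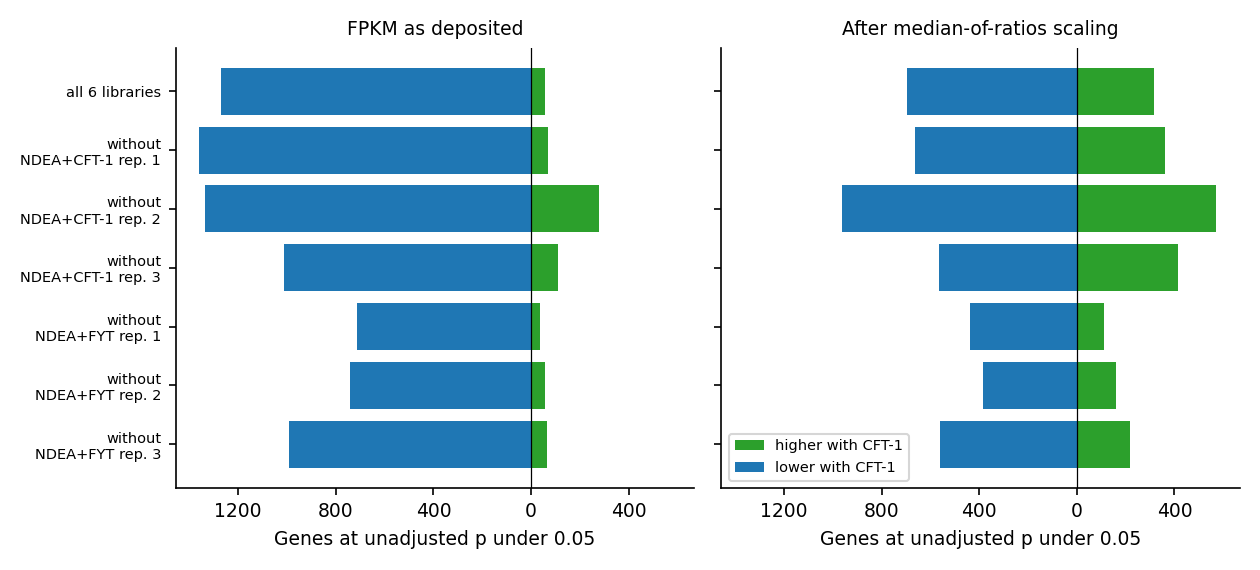
Genes with an unadjusted p under 0.05 in limma, lower with CFT-1 to the left of 0 and higher to the right, with all 6 libraries and without each library in turn. Lower genes outnumber higher genes in every bar as deposited (1272 against 56 with all libraries) and after scaling (695 against 315).

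In 2410 genes (20.7%), and in 2176 (18.7%) after scaling, the 3 values of one tea group lay wholly above or below the 3 of the other. As deposited, 270 (2.32%) of them were higher with CFT-1 and 2140 (18.4%) lower. After scaling these counts were 1018 (8.74%) and 1158 (9.94%). Leaving out any 1 library raised the counts, since fewer libraries overlap less often, to 455 to 1108 higher and 2596 to 3235 lower as deposited. After scaling the ranges were 1404 to 1949 and 1514 to 1991. Higher genes then outnumbered lower genes without NDEA+CFT-1 replicate 1 (1650 against 1605) and without NDEA+CFT-1 replicate 3 (1814 against 1725). They also did with all 6 libraries after quantile normalization (929 against 836). Differences of at least 2-fold in mean FPKM + 1 were few, with 13 genes (0.112%) higher and 130 (1.12%) lower as deposited and 25 (0.215%) and 85 (0.73%) after scaling. Of the 13 and the 130 genes, 3 and 91 had groups that did not overlap, and of the 25 and the 85 genes after scaling 11 and 55 had. The count of 2-fold lower genes was 257 without NDEA+CFT-1 replicate 1, and the count of 2-fold higher genes lay between 20 and 32 without any 1 library. After scaling, the counts without any 1 library were 26 to 65 higher and 88 to 144 lower. With a pseudocount of 0.1 in place of 1, as deposited, 34 higher and 342 lower genes reached 2-fold. Most genes were bounded more tightly than 2-fold on the log2(FPKM + 1) scale, which understates fold changes of low genes. The 95% confidence interval of the difference lay within a 2-fold change in either direction for 9382 genes (80.5%) as deposited and for 9794 (84.1%) after scaling. With a pseudocount of 0.1, as deposited, it did so for 7578 genes (65%). With a pseudocount of 1 and each library left out in turn, the share as deposited was 70.4% to 88%. The median half-width of the interval with all 6 libraries was 0.43 on the log2 scale as deposited.

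The direction of the difference followed the abundance of the gene. The tested genes were divided by mean FPKM over the 6 libraries into 8 classes of nearly equal size. As deposited, the median log2 difference of NDEA+CFT-1 from NDEA+FYT was −0.22 in the lowest class (FPKM 1.00 to 1.70), −0.23 in the next 2 classes and 0.05 in the highest class (50.6 to 36270). After scaling the medians went from −0.13 in the lowest class through 0.00 in the fifth class to 0.22 in the highest. In the highest class after scaling, 383 of 1457 genes had groups that did not overlap and were higher with CFT-1, and 34 were lower. In the lowest class, also of 1457 genes, 23 were higher and 227 were lower. Over all tested genes after scaling, 8.74% were higher and 9.94% lower without overlap. As deposited the counts were 132 higher and 76 lower in the highest class, and 7 and 355 in the lowest. The shares over all tested genes were then 2.32% and 18.4%. Without NDEA+CFT-1 replicate 2 the medians after scaling still went from −0.09 to 0.14.

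Each library was then described by its median deviation from the mean of the 6 libraries in the highest class minus that in the lowest class. After scaling this value was 0.06, 0.45 and 0.04 in the CFT-1 libraries. It was −0.20, −0.16 and −0.15 in the FYT libraries. The means were 0.18 ± 0.23 and −0.17 ± 0.03 (SD, n = 3 each, exact permutation p = 0.1). The groups did not overlap, and replicate 2 was far above the other CFT-1 libraries, whose values of 0.06 and 0.04 were also above all 3 FYT values. With classes formed from the Control and NDEA libraries, which are separate from the comparison, the values after scaling were 0.02, 0.45 and 0.00 against −0.18, −0.13 and −0.13 (exact permutation p = 0.1, n = 3 per group). The share of the 500 genes with the highest mean FPKM was also larger in the CFT-1 libraries. These genes belong to the highest class formed from the tea libraries, so both measures partly use the same values. The part of this share in the counts of lower genes as deposited was not tested.

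**Figure D3:**
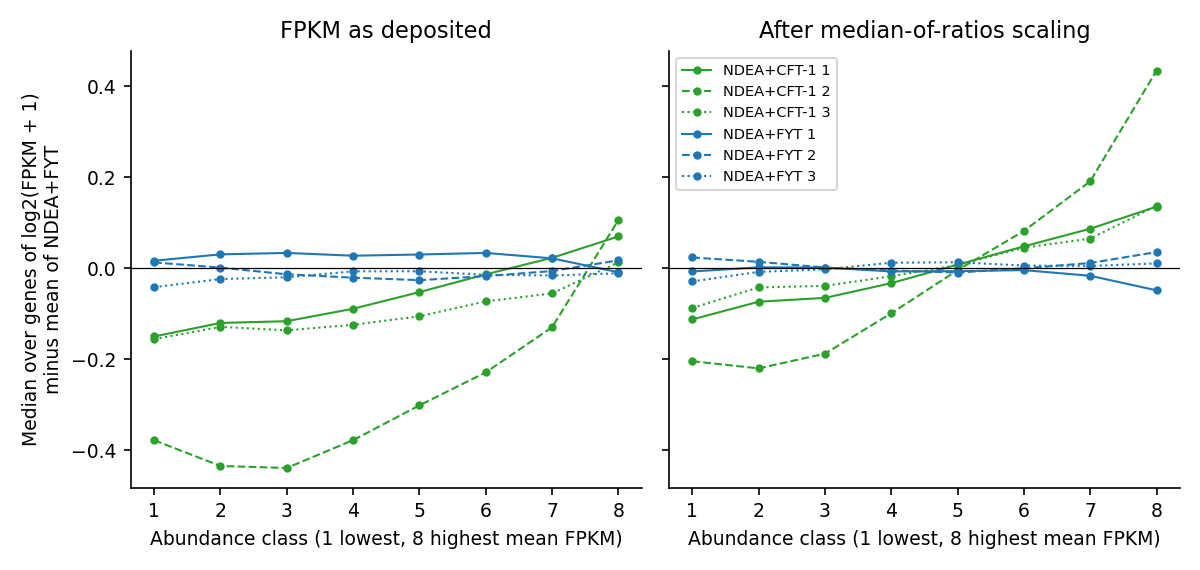
Median deviation of each library from the mean of the 3 NDEA+FYT libraries, in log2(FPKM + 1), in 8 classes of genes from low to high mean FPKM. The 3 CFT-1 lines end higher in class 8 than in class 1 on both scales, with the largest rise in replicate 2. That line first falls from class 1 to class 2 (−0.38 to −0.43 as deposited, −0.20 to −0.22 after scaling). The FYT lines lie around the 0 that their mean defines.

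Single genes were ranked by the size of the difference among those with an unadjusted p under 0.05 and no overlap on both scales, which 46 higher and 650 lower genes met. The 15 with the largest difference in each direction were examined, and the values of 2 in each direction are given. These values describe the genes, since the ranking used the same libraries and no adjusted p was under 0.05.

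ENSRNOG00000014090 had the largest difference among these 15 genes higher with CFT-1. Its FPKM was 685, 328 and 560 in the 3 NDEA+CFT-1 libraries and 106, 68.7 and 248 in the 3 NDEA+FYT libraries. The lowest CFT-1 value was thus above the highest FYT value, though by less than the range within either group. The means were 524 ± 181 and 141 ± 94.7 (SD, n = 3 each), a 3.72-fold difference, and the log2 difference was 2.03 with an SE of 0.48 (limma, adjusted p = 0.260, and 0.406 after scaling). Without tea it varied widely, with 114, 306 and 116 in Control and 133, 515 and 305 in NDEA. With library weights its adjusted p was 0.0459 as deposited.

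ENSRNOG00000055755 was 15.8, 24.0 and 15.8 FPKM with CFT-1 and 3.26, 9.76 and 7.55 with FYT. The groups did not overlap, and the means of 18.5 ± 4.76 and 6.86 ± 3.30 differed 2.70-fold (SD, n = 3 each, log2 difference 1.39 with an SE of 0.35, limma adjusted p = 0.280, and 0.434 after scaling). Control had 8.62, 9.92 and 2.46 and NDEA had 16.0, 4.98 and 7.09. Only NDEA replicate 1, among these 6 libraries, reached the level of the CFT-1 libraries.

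ENSRNOG00000002802 had the largest difference among these 15 genes lower with CFT-1. It was 5.96, 2.09 and 4.13 FPKM with CFT-1 and 17.7, 136 and 12.3 with FYT. NDEA+FYT replicate 2 was far above the other 2 FYT libraries and decided the size of the difference. The means of 4.06 ± 1.94 and 55.4 ± 70.0 differed 13.6-fold (SD, n = 3 each), and the log2 difference was −2.76 with an SE of 0.84 (limma, adjusted p = 0.336, and 0.542 after scaling). Without NDEA+FYT replicate 2 it was −1.72. Control had 13.3, 40.5 and 4.54 and NDEA had 38.3, 9.93 and 12.8.

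ENSRNOG00000025764 was 37.9, 10.9 and 27.6 FPKM with CFT-1 and 52.0, 127 and 93.9 with FYT. All 3 CFT-1 values were below all 3 FYT values. The means of 25.4 ± 13.6 and 90.9 ± 37.4 differed 3.57-fold (SD, n = 3 each, log2 difference −1.87 with an SE of 0.49, limma adjusted p = 0.293, and 0.461 after scaling). Without NDEA+CFT-1 replicate 2 the log2 difference was −1.37. Control had 110, 115 and 25.7 and NDEA had 153, 50.9 and 42.4. The Control values thus fell among those of both tea groups, and all 3 NDEA values were above all 3 CFT-1 values.

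**Figure D4:**
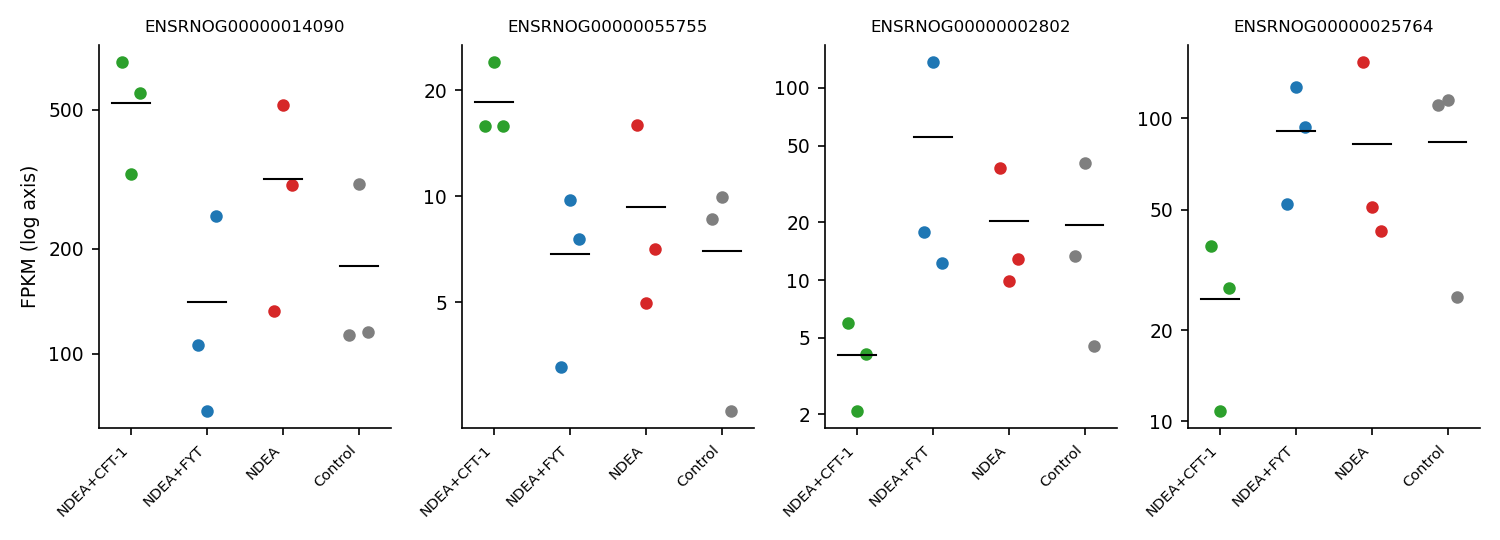
FPKM on a log axis of 4 genes in each of the 12 libraries, with a bar at each group mean. The CFT-1 and FYT points do not overlap in any of the 4 panels (685, 328 and 560 against 106, 68.7 and 248 in the leftmost panel), and the NDEA and Control points spread widely.

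Over the 15 genes highest with CFT-1 the log2 difference was 0.64 to 2.03, and over the 15 lowest it was −1.42 to −2.76. Each 15 held 1 ID of the non-Ensembl form. Of the 15 lower genes, 4 were listed at 0 in at least 1 of the 6 tea libraries.

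Some IDs were detected in only 1 tea group. Of the 22503 IDs above 0 in at least 1 tea library, 93 were above 0 in all 3 FYT libraries and listed at 0 in all 3 CFT-1 libraries. The reverse was found for 23 IDs. Where the highest FPKM had to reach 0.1, these counts were 44 and 12, and where it had to reach 0.5 they were 14 and 3. All 93 were low, at or below 1.82 FPKM, and none was among the tested genes. Among the 23, 1 was tested and was picked out after its values were seen. ENSRNOG00000050545 was 1.36, 1.66 and 131 FPKM with CFT-1, so that a single library carried its mean. It was listed at 0 in all 3 FYT libraries. It was 66.3, 2.79 and 0 in Control and 923, 183 and 1.57 in NDEA, and thus varied widely within the groups without tea as well.

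The 671 non-Ensembl IDs were less abundant than the Ensembl IDs, with a median FPKM of 2.41 against 7.66. Their median log2 difference was −0.21 as deposited and −0.09 after scaling, against −0.14 and 0.01 for the Ensembl IDs. An unadjusted p under 0.05 was found for 15.9% of the non-Ensembl and 11.1% of the Ensembl IDs as deposited, and for 11.5% and 8.50% after scaling. The share of IDs whose groups did not overlap was 21.0% of the non-Ensembl and 20.7% of the Ensembl IDs as deposited, and 16.2% and 18.8% after scaling. These shares were not compared by a test, and the abundance of both kinds differed.

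Finally, the difference between the teas was set beside the difference of Control from NDEA, which shares no library with it. Across the 11650 genes after scaling, Pearson's r was 0.29 and Spearman's rho was 0.40, and 66.1% of genes had the same sign. As deposited, r was 0.26 and rho was 0.35. Genes are not independent of each other, and these values describe the libraries only. Of the 695 genes lower with CFT-1 after scaling, 570 (82.0%) were also lower in Control than in NDEA, against 50.9% of all tested genes. Of the 315 higher genes, 61 (19.4%) were lower in Control than in NDEA. As deposited, 1143 of the 1272 lower genes (89.9%) and 31 of the 56 higher genes (55.4%) were lower in Control, against 75.7% of all tested genes. The share of the 56 was lowest without NDEA replicate 1, at 37.5% against 64.6% of all tested genes, and highest without Control replicate 2, at 67.9% against 74.4%. Among the 15 single genes ranked in each direction, 10 of the higher and 5 of the lower genes were lower in Control than in NDEA after scaling, and no test was made of these counts.

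The strength of the relation depended on 1 library of the Control group. Without Control replicate 3, r after scaling was 0.15, the lowest value of the 12 libraries left out in turn. Spearman's rho was then 0.27, and 62.1% of genes had the same sign. Of the 695 and the 315 genes, 70.1% and 27.3% were lower in Control, against 52.2% of all tested genes. The highest r was 0.36, without Control replicate 1. As deposited, r was 0.12 without Control replicate 3. That library had the fewest detected genes of the 12, with 17989 IDs above 0. It also had the largest share in the 500 genes chosen on the tea libraries, 75.8%. NDEA+CFT-1 replicate 2 came next in both measures, with 18193 IDs and 74.9%. Without NDEA+CFT-1 replicate 2, r after scaling was 0.30. Within the 8 abundance classes after scaling, r was 0.15 to 0.25 in all but the highest class, where it was 0.05. The share of genes with the same sign ran otherwise, at 75.4% in the highest class and 61.2% to 68.1% in the others. As deposited that share was 52.8% in the highest class, the lowest of the 8. The part of the library composition in this relation was not tested.

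**Figure D5:**
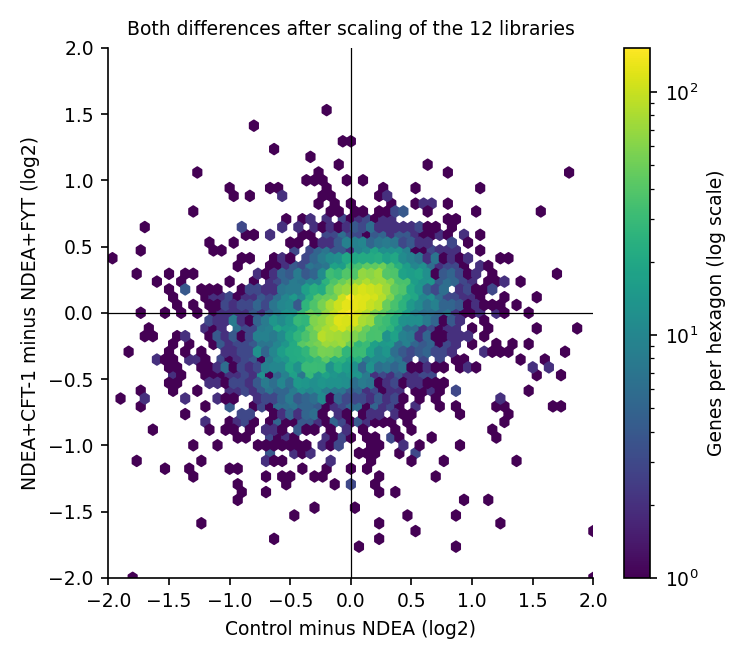
Log2 difference of NDEA+CFT-1 from NDEA+FYT against that of Control from NDEA for the tested genes, after scaling of the 12 libraries, as the number of genes per hexagon on a log color scale. The cloud leans upward to the right (r 0.29), and 22 genes outside the plotted range are not shown.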

How the data were processed

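RNA sequencing was analysed for 3 NDEA+CFT-1 and 3 NDEA+FYT liver libraries, grouped by their labels, with Control and NDEA for reference. The authors used Trimmomatic for trimming and HISAT2 for alignment, took out PCR duplicates, counted reads per gene (HTSeq 0.6.1 and the build Rnor_6.0 are named in the submitters' processing notes) and deposited FPKM values. FPKM are shares of a library, so a change in a few abundant genes shifts all others. The authors' count-based test was not used here, because it needs read counts.

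Genes whose FPKM averaged 1 or more in the 6 libraries were tested on log2(FPKM + 1), as deposited and after median-of-ratios scaling, with limma 3.58.1 in R 4.3.3 (lmFit, eBayes with trend, Benjamini-Hochberg adjustment), so that fold changes of low genes are understated. Library measures were compared by two-sided exact permutation over 20 assignments. Relative depth came from the size of 1 read at FPKM under 0.2. The fit was tested on simulated data. Named genes were the 15 in each direction with the largest difference among those with an unadjusted p under 0.05 and no overlap on both scales, and 2 IDs in each direction are printed. Pathway lists, cell type markers and the genes of the study's qRT-PCR were also chosen to be described, but 0 IDs could be paired with a symbol, so these are not analysed here. Alternatives were another scaling, pseudocount and filters, all 4 groups in 1 fit, a replicate block, eBayes without trend, library weights and each library left out. Further alternatives after scaling, the abundance classes and the relation to Control and NDEA were added after seeing the data. The members, lists and rules were chosen with earlier results of these data known.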

Additional observations from a re-analysis of the deposited data

How the results depend on the processing

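With 3 libraries per group and unknown read depth, differences under about 0.43 on the log2 scale were within the interval of a typical gene. The count of 0 genes at an adjusted p under 0.05 held under all alternatives except library weights as deposited (94 genes) and the fit without NDEA+FYT replicate 3 (1 gene), for a range of 0 to 1 over libraries left out. The causes of the changes below were not tested. Counts are given as higher and lower with CFT-1. Median-of-ratios scaling gave 315 and 695 genes at an unadjusted p under 0.05, 1018 and 1158 without overlap, and 25 and 85 at 2-fold. Quantile normalization gave 318 and 516, 929 and 836, and 31 and 66. A pseudocount of 0.1 gave 34 and 342 genes at 2-fold. Without a filter on low values, which tests more genes, 129 and 2141 had an unadjusted p under 0.05, and 3576 were lower without overlap. A mean FPKM of at least 5, which tests fewer, left 588 lower at an unadjusted p under 0.05, 1004 lower without overlap and 64 lower at 2-fold. All 4 groups in 1 fit gave 21 and 616, and library weights gave 388 and 1855.

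With each library left out as deposited, the ranges were 35 to 277 and 714 to 1360 genes at an unadjusted p under 0.05, 455 to 1108 and 2596 to 3235 without overlap, and 20 to 32 and 142 to 257 at 2-fold. After scaling they were 112 to 571 and 384 to 964, 1404 to 1949 and 1514 to 1991, and 26 to 65 and 88 to 144. The deviations of same-numbered libraries correlated at 0.22, 0.08 and −0.07, and those of differently numbered libraries at −0.185 to 0.0856. With 3 libraries per group these values cannot decide whether the replicate numbers pair the samples. A replicate block gave 96 higher and 1098 lower genes at an unadjusted p under 0.05, and 336 and 603 together with scaling. The medians of the gene lists were not run, because 0 IDs had a symbol.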
